A study of Mus musculus with 28 samples.

Results

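Naive-like single cells were picked out of a droplet count table (10x Chromium 3′ v2) by their UMI counts, where a UMI (unique molecular identifier) stands for 1 captured mRNA molecule. A cell counted as naive-like when Cd3d, Cd3e and Cd3g together had at least 1 UMI, Ccr7 at least 1, Igfbp4 at least 1, and Gzma and Gzmb none. The rule held for 401 of 5471 cells, 382 of 2963 in the isotype library and 19 of 2508 in the blockade library, and they were set against the 4963 other CD3-positive cells. The cells came from MC38-OVA tumours, a mouse colon carcinoma line carrying ovalbumin, grown in C57BL/6 wild-type mice, and were sorted on day 12 as Tim-3-PD-1- CD8+ tumour-infiltrating lymphocytes (TILs). Mice had received isotype antibodies or antibodies to both Tim-3 and PD-1 (blockade), with 1 single-cell library for each, so no test between the treatments was possible and every interval on single-cell values below is an exact 95% interval that covers counting error only.

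Sorted bulk RNA-seq libraries, prepared by a modified SMART-Seq2 method, gave measurements that the rule had not used. From PD-1- CD8+ TILs of MC38-OVA-bearing wild-type mice, for which the labels name no treatment, there were 6 libraries of a sorted naive-like subset (CD62LhiSlamf7-CX3CR1-), 5 of a memory-like subset (CD62L-Slamf7hiCX3CR1-) and 3 of an effector-like subset (CD62L-Slamf7hiCX3CR1+). From the treated mice there were 3 Tim-3-PD-1- (DN) libraries after isotype and 3 after blockade antibodies, and 3 Tim-3+PD-1+ libraries of each treatment that served only to share the estimate of the spread. The naive-like libraries carry another date in their names than the other subsets, so date and subset cannot be told apart, and replicates 1 and 2 of the effector-like subset have 3 numbers in their names, so each may be a pool. The number of effector-like replicate 3 is among those of replicate 2, so these may not be independent. The genes of the sorted proteins, such as Slamf7, Cx3cr1, Pdcd1 (PD-1) and Havcr2 (Tim-3), were used by the sorts, and a difference in them between sorted groups is no finding.

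Naive CD8+ T cells circulate between blood and lymphoid organs. CCR7, a chemokine receptor, lets them enter lymph nodes, S1PR1 lets them leave, and IL-7 signalling keeps them alive, while the transcription factors LEF1, TCF1 (Tcf7), BACH2, FOXO1 and KLF2 hold them in a resting state. On activation these genes go down, and cells gain granzymes, inflammatory chemokines and receptors for inflamed tissue. Igfbp4 encodes a secreted protein that binds insulin-like growth factors, and its mRNA is found in naive T cells and also in stromal and epithelial cells.

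The 4 promoters below are shown because these genes lead the account that follows. They are Igfbp4 (a gene of the rule), Lef1 and Dapl1 (the other marker genes given for these cells) and Klf2, a transcription factor found in 98.9% of the isotype cells (369 of 373 after the exclusions below). Each runs from 250 bases before to 50 bases after the start annotated for that promoter, on the plus strand of GRCm38.p6, from RefSeq. For Igfbp4 the whole stretch lies inside the gene span given below, which begins at 99040005. Capitals mark matches, on either strand, to a KLF motif, CCNCNCCC, or in Dapl1 also to a FOXO motif, GTAAACA. Motif matches that overlap run together.
Igfbp4, chr11:99040994-99041293: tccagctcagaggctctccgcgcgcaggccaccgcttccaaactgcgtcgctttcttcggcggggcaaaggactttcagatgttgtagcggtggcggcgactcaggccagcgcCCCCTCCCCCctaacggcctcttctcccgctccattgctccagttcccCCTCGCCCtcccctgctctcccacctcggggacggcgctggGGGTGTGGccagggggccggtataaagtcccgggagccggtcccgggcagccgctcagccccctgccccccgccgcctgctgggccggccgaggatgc
Lef1, chr3:131110047-131110346: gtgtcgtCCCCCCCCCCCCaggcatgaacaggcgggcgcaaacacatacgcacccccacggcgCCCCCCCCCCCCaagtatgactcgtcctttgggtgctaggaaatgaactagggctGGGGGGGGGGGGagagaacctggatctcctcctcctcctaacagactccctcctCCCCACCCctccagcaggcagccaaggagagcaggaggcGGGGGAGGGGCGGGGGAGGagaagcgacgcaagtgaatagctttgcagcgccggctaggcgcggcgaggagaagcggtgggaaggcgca
Dapl1, chr2:59484403-59484702: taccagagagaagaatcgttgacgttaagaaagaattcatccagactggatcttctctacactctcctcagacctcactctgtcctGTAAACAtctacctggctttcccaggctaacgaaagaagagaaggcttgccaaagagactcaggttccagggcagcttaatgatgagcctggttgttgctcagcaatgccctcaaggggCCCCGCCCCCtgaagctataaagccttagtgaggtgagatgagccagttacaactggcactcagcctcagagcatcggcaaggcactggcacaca
Klf2, chr8:72318812-72319111: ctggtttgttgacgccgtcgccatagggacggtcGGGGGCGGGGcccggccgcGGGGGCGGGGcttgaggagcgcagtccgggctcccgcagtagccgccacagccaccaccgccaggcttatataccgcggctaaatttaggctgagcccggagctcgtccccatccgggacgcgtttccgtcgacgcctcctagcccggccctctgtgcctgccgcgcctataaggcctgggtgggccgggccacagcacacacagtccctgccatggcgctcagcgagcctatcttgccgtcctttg

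The KLF motif was in all 4 promoters. With overlapping matches joined, it filled 3 stretches in Igfbp4, 5 in Lef1, 1 in Dapl1 and 2 in Klf2. Lef1 has 4 promoter entries, and the one nearest the annotated gene start was taken. The motif was also in 49.47% of all 32851 promoters listed. The FOXO motif was in 3.65% of them. Over the 36 promoters of 28 genes that led in the naive-like cells of both libraries (list described below), 25 (69.44%) held the KLF motif. Of the 41 promoters of 32 genes that trailed in both, 16 (39.02%) held it. The ETS motif CCGGAAG was in 8 of the 36 (22.22%), in 1 of the 41 (2.439%) and in 8.858% of all promoters. The TCF/LEF motif CTTTGA went the other way, with 3 of the 36 (8.333%), 10 of the 41 (24.39%) and 16% of all. The RUNX motif TGTGGT was in 4 of the 36 (11.11%), in 9 of the 41 (21.95%) and in 16.76% of all. Of the 40 leading genes 14 have symbols of ribosomal proteins (Rpl or Rps), the pseudogenes Rpl9-ps6 and Rps12-ps3 included. Of the list that led in the isotype library (described below) 0 do. Of the 38 promoters of 29 genes of that isotype list, 57.89% held the KLF motif. The ETS, TCF/LEF and RUNX motifs were each in 13.16% of these 38. The leading genes were drawn from 482 eligible genes and the trailing genes from 6040, by unlike limits on UMIs. The motif shares of these eligible genes were not computed, so the shares are not set against genes of like level. A match is a description of letters, not of binding. Ccr7 is named only.

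The 2 genes that had to be present together lie close to each other. On chromosome 11 of GRCm38.p6, Igfbp4 spans 99040005 to 99052655 and Ccr7 99144199 to 99155077, with 91543 bases between them. The 1 protein-coding gene annotated in this gap, Tns4, had 0 UMIs in the table.

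Naive-like cells made up 13.1% of CD3-positive cells in the isotype library (382 of 2916, 95% interval 11.9% to 14.4%) and 0.776% in the blockade library (19 of 2448, 0.468% to 1.21%). The share was thus 16.9 times higher after isotype than after blockade antibodies, with an interval of 10.7 to 28.3 for counting error. Depth was similar, with a median of 3820 UMIs per naive-like cell after isotype and 4416 after blockade, against 3618.5 and 3821 in the other CD3-positive cells. After thinning every cell to 2400 UMIs, which left out 494 isotype and 0 blockade CD3-positive cells with fewer UMIs, the values were 8.40% (202 of 2404) and 0.495% (12 of 2422). Without the Igfbp4 criterion the shares were 43.8% and 11%, 3.98 times apart. Without the granzyme criterion they were 14% and 1.55%, 9.04 times apart.

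Igfbp4 was the narrower of the criteria. Among isotype cells without Gzma or Gzmb, an Igfbp4 UMI was found in 29.9% of those with Ccr7 and in 19.2% of those without it. Among isotype cells with a granzyme UMI the same shares were 15.8% and 2.51%. In the blockade library the 4 shares were 7.06%, 3.02%, 4.90% and 2.64%, so there the Igfbp4 share of the Ccr7-positive, granzyme-negative cells stood less far above that of the granzyme-positive cells. Cells without a CD3 UMI held Igfbp4 in 14 of 34 cases (41.2%) after isotype and in 10 of 54 (18.5%) after blockade, and Ccr7 in 8.82% and 11.1%. How many naive-like cells met the rule through free RNA or RNA of another cell was not tested.

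Many cells sat at the threshold. Of the 382 isotype cells, 157 had exactly 1 Ccr7 UMI, 205 exactly 1 Igfbp4 UMI, 85 exactly 1 of each and 105 at least 2 of each. Just outside, 894 isotype cells lacked only Igfbp4, 190 lacked only Ccr7, and 21 had all the rest but 1 granzyme UMI. In the blockade library 6 of the 19 cells had exactly 1 UMI of each and 4 had at least 2 of each, while 250 lacked only Igfbp4, 14 only Ccr7, and 8 had 1 granzyme UMI. Asking for 2 Ccr7 UMIs left 7.72% and 0.490%.

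**Figure D1:**
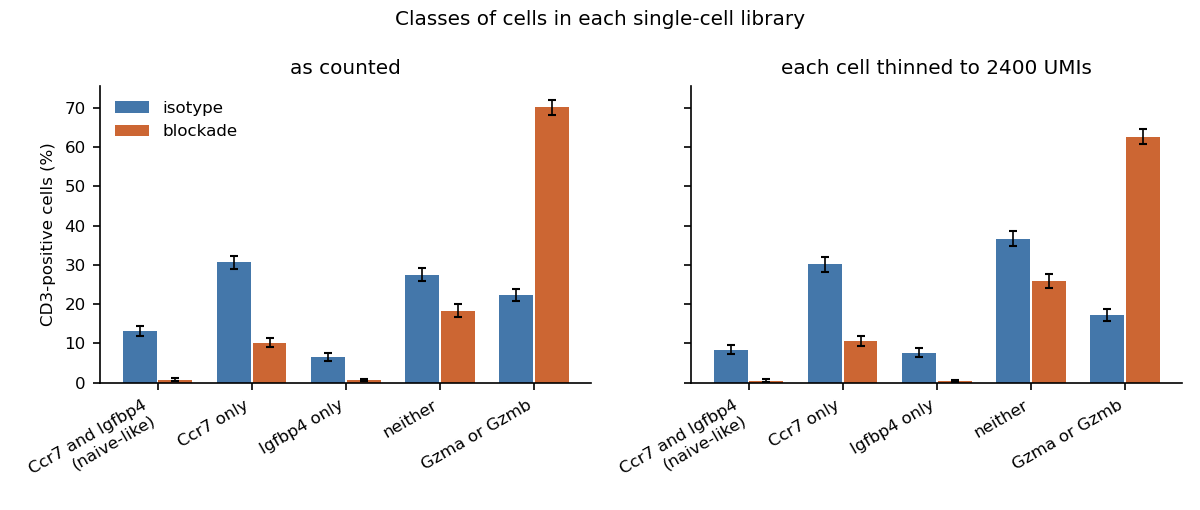
Shares of CD3-positive cells (%, bars start at 0) in 5 classes that do not overlap, for the isotype and blockade libraries, as counted (left) and after thinning each cell to 2400 UMIs (right); whiskers are exact 95% binomial intervals. Naive-like cells held 13.1% and 0.776% as counted, and 8.40% and 0.495% after thinning, while cells with Gzma or Gzmb held 22.3% and 70.1% as counted.

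The neighbouring classes without granzymes were smaller after blockade as well. Cells with Ccr7 but no Igfbp4 made up 30.7% (894 cells) and 10.2% (250 cells), cells with Igfbp4 but no Ccr7 6.52% (190) and 0.572% (14), and cells with none of the 4 genes 27.5% (801) and 18.3% (449). Cells with Gzma or Gzmb were 22.3% (649) after isotype and 70.1% (1716) after blockade.

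A few of the 401 cells carried markers of other cell types or very many UMIs. In 10 of the 401, 9 after isotype and 1 after blockade, the cell had over 10000 UMIs, at least 5 UMIs of macrophage or of tumour and stroma markers, or at least 10 of dendritic cell markers. The isotype cells with 11579, 11848 and 13458 UMIs met the depth limit only. They were under every marker limit and held 34, 43 and 47 UMIs of CD3. The 3 deepest, with 32301, 55144 and 70846 UMIs, held 39, 132 and 275 UMIs of the tumour and stroma list, 57, 150 and 172 UMIs of Igfbp4, and only 1, 2 and 4 of CD3. The blockade cell had 428 dendritic marker UMIs and 50 of the 94 Ccr7 UMIs of its class. In all, 385 of the 1108 Igfbp4 UMIs of the isotype class came from the cells that stood apart. Values below are without such cells in any class, which leaves 373 naive-like cells after isotype and 18 after blockade, and 7 barcodes shared by the libraries (2 of them on isotype naive-like cells) were kept.

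**Figure D2:**
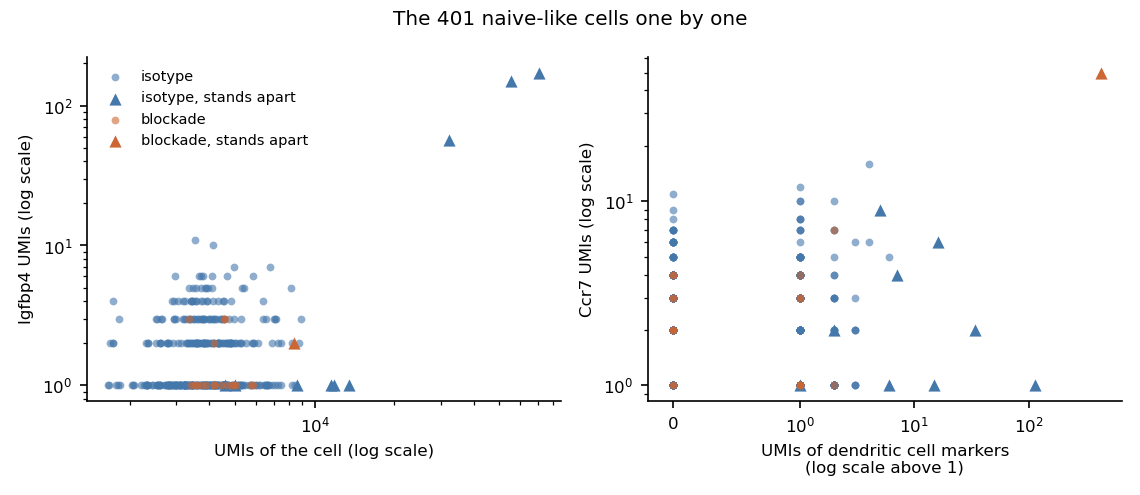
Each of the 401 naive-like cells as a point: Igfbp4 UMIs against all UMIs of the cell (left, both axes log) and Ccr7 UMIs against UMIs of dendritic cell markers (right, log y axis, x axis log above 1); triangles are the 10 cells that stand apart. The 3 deepest cells have 57 to 172 Igfbp4 UMIs, and the blockade cell with 428 dendritic marker UMIs has 50 Ccr7 UMIs.

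The remaining cells carried the identity of CD8+ T cells. Cd8a or Cd8b1, the 2 chains of CD8, was found in 370 of the 373 isotype cells (99.2%), and Cd4 in 1. Summed over the 373 cells, γδ T cell markers had 2 UMIs, macrophage markers 7 (9 of 11 genes at 0), B cell markers 39 (4 of 6 at 0), natural killer markers 32, plasmacytoid dendritic markers 57, tumour and stroma markers 76 with at most 3 in a cell, and dendritic markers 196 with at most 6. CD4 T cell markers had 163 UMIs, 154 of them from Izumo1r, the folate receptor 4 gene. The 18 blockade cells held 11 dendritic, 7 plasmacytoid, 4 tumour and stroma and 3 red blood cell UMIs, and 1 each of CD4 T, natural killer and macrophage markers.

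Against the other CD3-positive cells, the isotype naive-like cells held more Lef1, Dapl1 and Ramp1 and far less of the memory and effector genes. With a gene counted as higher or lower when 2 sums of at least 20 UMIs differed by 1.5-fold, 611 of 9307 genes (6.56%) were higher and 1295 (13.9%) lower, with a median log2 difference of -0.05. These contrasts describe cells that were picked on the same counts, and no test was made. All levels are UMI counts scaled to a common total of the summed cells (CPM), and differences are log2 ratios with 0.5 UMI added to each sum.

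The marker genes given for these cells, other than the genes of the rule, were both higher. Lef1, a transcription factor of the Wnt pathway that keeps T cells naive, stood at 398 CPM against 212 (log2 difference 0.91, interval 0.77 to 1.04) and was found in 279 of 373 cells (74.8%) against 48.7% of the others. Dapl1, a gene of unclear function that marks resting T cells, stood at 762 against 369 CPM (1.05, 0.95 to 1.14) and was found in 248 cells (66.5%) against 34.5%. Among isotype cells with a granzyme UMI, Lef1 was found in 32.5% and Dapl1 in 13.1%, and among the 34 cells without CD3, at a median of 3873.5 UMIs, in 2 and in 1. At least 1 of Lef1 and Dapl1 was present in 335 cells (89.8%), and both in 192 (51.5%) against 21% of the others.

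The label naive-like holds for these genes, but nearly every cell also carried a cytotoxic granule gene. Nkg7, which encodes a granule membrane protein, was found in 354 of 373 cells (94.9%), against 92.6% of the others and 8 of the 34 cells without CD3, at 1145 against 1573 CPM. Ccl5, a chemokine of memory and effector T cells, was found in 145 cells (38.9%) against 72.6%. Of the isotype cells without CD3 11 of 34 held Ccl5 (32.4%, median 3873.5 UMIs in all), 5 of them among the 13 with tumour and stroma markers (38.5%, median 2516 UMIs). The part of free RNA in the Ccl5 share was not tested. The 15 cells without Ccl5 and Nkg7 held Dapl1 at 915 CPM and Lef1 at 553, against 757 and 393 in the 358 others.

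Among transcription factors of the naive list, 2 of 15 were higher past 1.5-fold (Bach2 and Lef1) and 1 lower (Myb), with a median of 0.07. Bach2, a repressor that holds back effector genes, had 24.9 against 16 CPM, from 37 UMIs. Klf2, which switches on S1pr1, had 3433 against 2604 CPM (0.40, 0.36 to 0.44), and Tcf7, the partner of Lef1, 275 against 252 CPM (0.13, -0.03 to 0.28). Thus Lef1 and Klf2 separated the naive-like cells from the other cells of the same library by more than the counting error, and Tcf7 did not.

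Genes of homing and egress were split. Of 11, Ccr9 and Itgb7 were higher past 1.5-fold and Itga6 lower (median -0.30). Ccr9, the receptor for the gut chemokine CCL25, stood at 53.1 against 19.1 CPM (1.48, 1.07 to 1.86), and Itgb7, an integrin chain for gut homing, at 337 against 218 (0.63, 0.48 to 0.77). Itgae, the αE chain that pairs with Itgb7 and a gene of the residency list, stood at 44.3 against 18.7 (1.25, 0.81 to 1.66). S1pr1 had 94.0 against 75.6 CPM (0.32) and Cd28, the costimulatory receptor, 297 against 425 (-0.52).

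The 2 chains of the interferon-γ receptor went opposite ways. Ifngr1, the ligand-binding chain, stood at 208 CPM against 543 (-1.38, -1.56 to -1.22), while Ifngr2, the signalling chain, stood at 40.3 against 16.5 (1.3, 0.84 to 1.73). Il6st, the gp130 chain shared by IL-6 family receptors, had 28.9 against 17.3 (0.75). Of the 11 genes of cytokine receptors and survival these were the 3 past 1.5-fold (2 higher, 1 lower, median 0.08). Il7r had 218 against 207 CPM (0.08) and Bcl2, which protects from cell death, 550 against 624 (-0.18).

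Other genes of the naive state gave 5 higher and 1 lower of 13 (median 0.45), namely Dapl1, Ramp1, Treml2, Trib2 and Lypd6b against Ly6c1. Ramp1, which makes the receptor for the neuropeptide CGRP, stood at 99.4 against 37.1 CPM (1.43, 1.14 to 1.70) and was found in 31.1% of the cells against 11.7%. Treml2, a receptor of the TREM family, had 41 against 26.7 CPM (0.63) and Trib2, a pseudokinase, 23.5 against 15.7 (0.60). Outside that list, genes named because they led in the isotype library included Timp2, an inhibitor of matrix proteases (62.5 against 26.6, 1.24), Rgcc, a cell cycle regulator (218 against 99.8, 1.13), and Izumo1r (103 against 47.9, 1.11, in 80 cells). Rgs10, which damps G protein signals, had 375 against 252 CPM (0.57).

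No gene of the memory, cytotoxic or terminal effector lists was higher past 1.5-fold in the isotype naive-like cells. Lower were 12 of 14 memory and activation genes (median -1.61), 10 of 17 cytotoxic genes (-1.40) and 16 of 19 terminal effector genes (-2.46). Klrc1, the inhibitory NKG2A chain, had 8 UMIs in 5 cells, 5.37 CPM against 138 (-4.60, -5.90 to -3.70). Klrk1, the activating receptor NKG2D, had 6.05 against 177 CPM (-4.79), and Ccr2, a receptor for inflamed tissue, 2.69 against 46.0 (-3.93). Gzmk, a granzyme outside the rule, had 3 UMIs, 2.02 against 62.9 CPM (-4.74, -7.25 to -3.41). Cd44, the classical mark of antigen-experienced cells, had 16.1 against 45.8 CPM (-1.48), Cxcr3, the receptor for interferon-induced chemokines, 26.9 against 118 (-2.12), and S100a6 63.8 against 353 (-2.46).

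The cells also held less of the genes of the G2 and M phases and of the interferon genes. Of 14 G2 and M genes 11 were lower (-1.2), and Mki67, the proliferation antigen, had 0 UMIs. With the cells that stand apart kept in all classes, 11 of 17 were higher and none lower (0.67). Of 15 genes of the S phase none was higher and 1 (Tyms) lower, with a median of 0.21. Of 16 interferon-stimulated genes 13 were lower and none higher (-1.45). Isg15, a ubiquitin-like protein, had 26.9 against 100 CPM (-1.88). None of 10 T cell identity genes and none of 83 ribosomal protein genes (median 0.10) passed 1.5-fold in either direction, and 2 of 12 quiescence genes were lower. Of 15 co-inhibitory genes 11 were lower, with Pdcd1 at 1 UMI and Havcr2 at 0. Cx3cr1 was at 0 UMIs and Slamf7 in 5 cells.

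The 18 blockade cells, with 78705 UMIs in all, held several naive genes at levels above their own library as well. Dapl1 stood at 788 CPM against 71.8 (3.47, 3.06 to 3.83), Klf2 at 2376 against 1226 (0.96, 0.74 to 1.16) and Tcf7 at 445 against 191 (1.24, 0.70 to 1.70). Ramp1 stood at 114 against 9.58 (3.65, 2.40 to 4.56), from 9 UMIs in 8 cells. Il7r (292 against 140, 1.09), Bcl2 (1004 against 591, 0.77), Rgs10 (292 against 135, 1.15) and Socs3, a brake on cytokine signalling (432 against 215, 1.03), were higher too. Lef1 had 203 against 128 CPM, with an interval that spanned 0 (0.72, -0.14 to 1.38), and 8 of its 16 UMIs were in 1 cell.

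At this depth the counts over all genes were shaped by the added value. By the 1.5-fold rule 3090 of 9278 genes (33.3%) were higher and 2261 (24.4%) lower, but 1011 of the 3090 had 0 UMIs in the naive-like cells. Restricted to genes with at least 3 UMIs expected in the smaller sum, and with 1 added UMI divided by the totals, 207 of 2790 (7.42%) were higher and 1179 (42.3%) lower, with a median of -0.40. On that basis 4 of 11 naive transcription factors were higher (Klf2, Klf3, Lef1 and Tcf7) and 2 lower (Bcl11b and Zeb1), 3 of 7 other naive genes were higher (Actn1, Dapl1 and Nsg2) and 1 lower, and 3 of 7 cytokine receptor and survival genes were higher (Bcl2, Il21r and Il7r) and Ifngr1 lower. Lower were 11 of 12 memory, 11 of 13 cytotoxic, 13 of 13 terminal effector (median -2.58), 13 of 13 interferon-stimulated (-2.02) and 10 of 12 glycolysis genes. Of 82 ribosomal protein genes 17 were higher and none lower (0.48).

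Several effector genes were at 0 in the 18 blockade cells, where 3 UMIs would be 38.1 CPM. The other blockade cells were at least 12.7-fold above that floor for Klrc1, 4.95-fold for Gzmk, 4.10-fold for Ccr2, 2.64-fold for Ctla4 and 2.36-fold for Fgl2. Klrk1 was not at 0, with 7 UMIs in 3 cells, 88.9 against 507 CPM (-2.41). The higher memory gene, Xcl1, and the higher cytotoxic gene, Ccl4, both chemokines of activated T cells, came from 1 cell. That cell of 5859 UMIs gave 228 of 231 Ccl4 UMIs (98.7%) and 137 of 143 Xcl1 UMIs (95.8%), and the class held 41.2 and 82.4 CPM without it.

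The naive-like cells stood at or near 1 end of the order of the classes for several genes. In the isotype library Lef1 stood at 398 CPM in naive-like cells, 337 in cells with Igfbp4 only, 247 with Ccr7 only, 210 with neither and 129 in cells with a granzyme UMI. Dapl1 stood at 762, 873, 492, 307 and 119 CPM in the same order, so that the cells with Igfbp4 but no Ccr7 were not below the naive-like cells. Ramp1 gave 99.4, 105, 42.6, 33.9 and 14 CPM. Klrc1 ran the other way, with 5.37, 12.5, 48.9, 114 and 339 CPM, and Ifngr1 with 208, 219, 340, 485 and 1010 CPM.

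Tcf7 did not follow Igfbp4, with 275 CPM in naive-like cells, 290 with Ccr7 only, 235 with Igfbp4 only and 258 with neither. Against Ccr7-positive cells without Igfbp4 alone, the isotype naive-like cells differed by 0.69 for Lef1, 0.63 for Dapl1, 1.22 for Ramp1, 0.64 for Itgb7 and 0.97 for Ccr9 on the log2 scale. The same contrast gave -0.07 for Tcf7, -0.71 for Ifngr1, -3.10 for Klrc1 and -2.80 for Klrk1. The Dapl1 difference went with depth. Among isotype cells with Ccr7 and under 3000 UMIs it was found in 40% with and 40% without Igfbp4, against 77.6% and 51.5% at 4000 to 4999 UMIs.

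**Figure D3:**
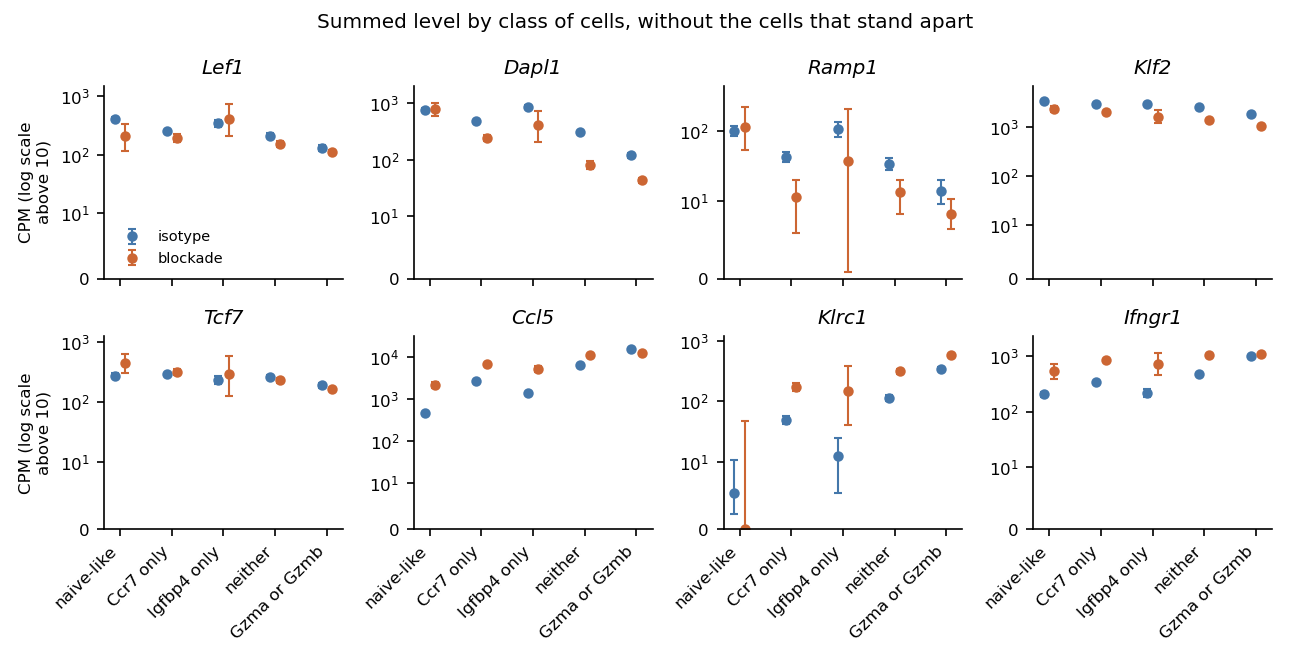
Summed level (CPM, log scale above 10) of 8 genes in the 5 classes of cells, isotype and blockade libraries, with exact 95% Poisson whiskers and without the cells that stand apart. In the isotype library Lef1, Dapl1 and Ramp1 are highest in the 2 classes with Igfbp4, and Klrc1 and Ifngr1 are lowest there, while Tcf7 is between 235 and 290 CPM in all classes but the granzyme-positive one.

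Between the libraries, the naive-like cells differed by more than the counting error in Ly6a, Ifngr1, Ifi27l2a, Ly6c2, Klrk1, Lef1 and Tcf7, among others. Of 2432 genes with at least 3 UMIs expected in the smaller sum, 251 (10.3%) were higher and 634 (26.1%) lower after blockade, with a median of -0.11. By the 1.5-fold rule alone, with its 0.5 UMI added, these shares were 21.8% and 22.8% of 5151 genes. Ly6a, the Sca-1 antigen, induced by interferons, stood at 292 CPM after blockade and 67.2 after isotype (2.15, 1.40 to 2.79). Ifngr1 stood at 534 and 208 (1.38, 0.86 to 1.83), Ifi27l2a, an interferon-stimulated gene, at 737 and 327 (1.18, 0.75 to 1.57), and Ly6c2 at 1550 and 810 (0.94, 0.66 to 1.21). Klrk1 stood at 88.9 and 6.05 (3.90, 2.22 to 5.47). The other CD3-positive cells gave 2.09 for Ly6a, 0.99 for Ifngr1, 1.42 for Ifi27l2a and 0.85 for Ly6c2 in the same contrast.

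The naive genes of these cells moved in different directions between the libraries. Lef1 was lower after blockade at 203 against 398 CPM (-0.92, -1.78 to -0.26), and Klf2 at 2376 against 3433 (-0.53, -0.75 to -0.32), while Tcf7 was higher at 445 against 275 (0.71, 0.15 to 1.19) and Bcl2 at 1004 against 550 (0.88, 0.52 to 1.2). Dapl1 differed by 0.06 (-0.34 to 0.42) and Ramp1 by 0.28 (-0.96 to 1.17). In the other CD3-positive cells the same contrast gave -2.36 for Dapl1, -1.95 for Ramp1, -0.40 for Tcf7 and -0.74 for Lef1. Ccl5 was found in 10 of the 18 blockade cells (55.6%), below its share in blockade cells without CD3 (61.1% of 54, median 5775.5 UMIs), and the part of free RNA was not tested here either. By list, 3 of 11 naive transcription factors were higher (Ets1, Klf3 and Tcf7) and 5 lower (Bcl11b, Foxo1, Id3, Ikzf1 and Lef1), none of 10 other naive genes passed, and 4 of 6 interferon-stimulated genes were higher (Bst2, Gbp2, Ifi27l2a and Irf7) and none lower. In the other CD3-positive cells 16 of 16 interferon-stimulated genes were higher (median 1.48), where 13.9% of 10129 genes were higher and 6.51% lower.

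Summed over a list, the naive-like cells of both libraries were at the naive end. Transcription factors of the naive list summed to 5433 CPM in isotype naive-like cells, 4937 with Ccr7 only, 4819 with Igfbp4 only, 4339 with neither and 3447 with a granzyme UMI, and to 4422 against 2413 at the 2 ends after blockade. Interferon-stimulated genes summed to 918 CPM in isotype naive-like cells and 3111 in granzyme-positive cells, and to 1728 and 4936 after blockade. Memory and activation genes summed to 1527 and 4763 after isotype, and to 4485 and 6862 after blockade. Without the 1 blockade naive-like cell that held most of the Xcl1 UMIs, 4485 became 2814.

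Genes were next ranked in the single cells and then read in the sorted bulk libraries, which the rule had not used. The leading list took the 40 genes highest by the smaller of the log2 differences of the 2 libraries, of 482 eligible. Eligible were genes outside the rule with at least 20 UMIs in the naive-like cells of each library, with the cells that stand apart kept, so that Ramp1 (9 UMIs in the 18 blockade cells) and Lef1 (16) could not enter. It ends at 0.14 with Rps19, just inside, and Rps27a just outside, and of the 40 only Dapl1 passed 1.5-fold in both libraries. The isotype leading list took the 40 highest of those with at least 50 UMIs in the 373 isotype cells (last 0.60 for Vav1, next 0.59 for Dhx30), and the trailing list the 40 lowest in both, of genes with at least 100 UMIs in the other cells of each library (last -1.51 for Myo1f, next -1.50 for Ikzf2). Bulk calls are edgeR's quasi-likelihood test at a Benjamini-Hochberg adjusted p under 0.05 over all genes tested. In bulk, fewer cells of a type and less RNA per cell cannot be told apart. Where groups are said below not to overlap, the share of all genes without overlap was not counted.

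Some of the genes that led in the naive-like single cells were higher in the sorted naive-like subset. Against the memory-like subset, 338 of 12388 genes (2.73%) were higher and 345 (2.78%) lower, and of the genes measured 15 of 36 leading genes were higher and none lower, 12 of 38 isotype leading genes were higher and 1 (Ccr9) lower, and none of 40 trailing genes was higher and 14 lower. The medians were 0.37, 0.60 and -0.71, against 0.01 over all genes. Where edgeR's count was 0, its unadjusted p under 0.05 gave 1 leading gene lower and 1 trailing gene higher, and DESeq2 gave 0 and 1. Against the effector-like subset, 470 genes (3.79%) were higher and 325 (2.62%) lower. There 22 leading genes were higher and 1 (Tuba1a) lower, 13 isotype leading genes were higher and 1 (Dtx1) lower, and 14 trailing genes were lower and 5 (Klra1, Klra6, Klra7, Ctla2b and Irak2) higher, with medians of 0.79, 0.77 and -0.63 against -0.04 over all genes.

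**Figure D4:**
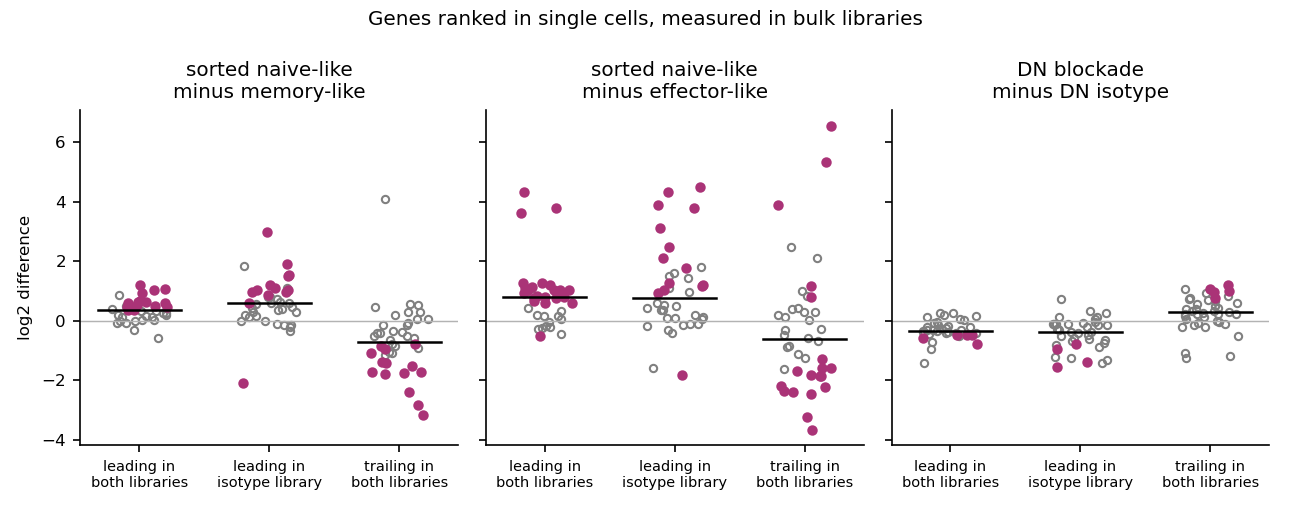
Log2 differences in bulk libraries (y axis) for genes that led in the naive-like cells of both single-cell libraries, led in the isotype library, or trailed in both; filled points passed edgeR's quasi-likelihood test, open points did not, and lines are medians. In the sorted naive-like subset the leading lists have medians of 0.37 to 0.79 and the trailing list -0.71 and -0.63, and in DN blockade against DN isotype libraries the medians are -0.33, -0.39 and 0.30.

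Both marker genes were higher in the sorted naive-like subset. Lef1 ranged from 238 to 502 CPM over 6 naive-like libraries (median 358), and stood at 101, 146, 109, 135 and 157 in the memory-like and at 95, 101 and 128 in the effector-like libraries. The naive-like libraries did not overlap with the others, and the log2 differences were 1.52 ± 0.18 (SE, adjusted p = 0.00035) and 1.78 ± 0.23 (adjusted p = 9.54e-05). Dapl1 stood at 26.9 ± 8.36 CPM (SD, n = 6) in naive-like, 11.7 ± 3.90 (n = 5) in memory-like and 1.90 ± 0.617 (n = 3) in effector-like libraries. It ran from 16.9 to 40.5 CPM in the naive-like libraries and up to 16.2 in the memory-like ones, again without overlap, with differences of 1.2 ± 0.32 (adjusted p = 0.0382, lost in 12 of 18 alternatives) and 3.80 ± 0.45 (adjusted p = 5.58e-05).

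The rule's own genes behaved differently in bulk. Ccr7 stood at 1141 ± 193 CPM in naive-like, 426 ± 139 in memory-like and 71.9 ± 47.3 in effector-like libraries, with no overlap between the naive-like libraries and the others (1.42 ± 0.27, adjusted p = 0.00693, and 3.99 ± 0.38, adjusted p = 8.1e-06). Igfbp4 gave no call. Its naive-like values were 71.8, 133, 114, 115, 126 and 815 CPM, its memory-like values 35.5, 125, 31.1, 9.13 and 21.4, and its effector-like values 505, 1060 and 5.86. The groups overlapped, and the log2 differences were 2.37 ± 0.96 (adjusted p = 0.175) and -1.19 ± 1.0 (adjusted p = 0.588). The libraries highest in Igfbp4 were also the highest in Krt8, a keratin of epithelial and carcinoma cells, with 205 CPM in naive-like replicate 6 (4.53 to 11.4 in the other naive-like ones), 50 in memory-like replicate 2, and 130 and 225 in effector-like replicates 1 and 2 against 2.15 in replicate 3. The part of tumour RNA in the Igfbp4 values was not tested.

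**Figure D5:**
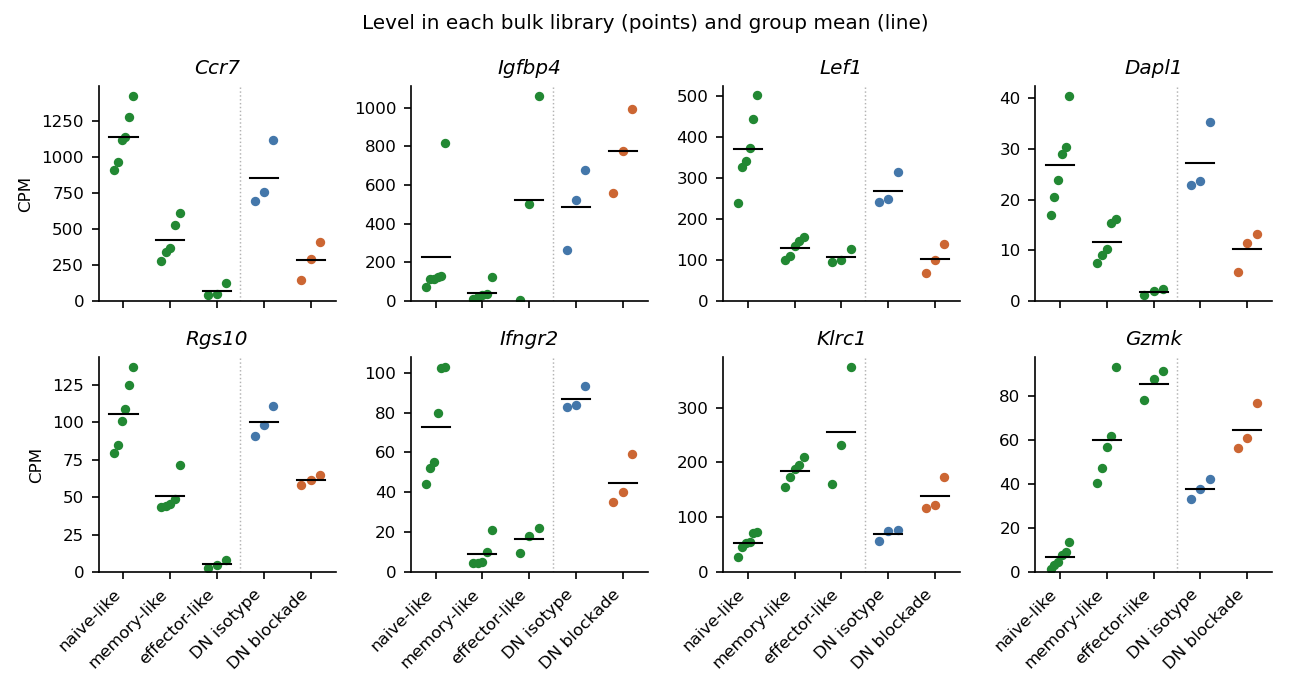
Level (CPM, linear axes from 0) of 8 genes in each bulk library (points) with group means (lines), for the sorted subsets (left of the dotted line) and the DN libraries of treated mice (right). Naive-like libraries lie above memory-like and effector-like ones for Ccr7, Lef1, Rgs10 and Ifngr2 and below them for Klrc1 and Gzmk, whereas Igfbp4 reaches 815, 125 and 1060 CPM in single libraries of the 3 subsets.

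Other genes of the single-cell lists were higher in the sorted subset too. Rgs10 stood at 106 ± 22.3 CPM in naive-like, 50.5 ± 11.7 in memory-like and 5.21 ± 2.57 in effector-like libraries (1.07 ± 0.23, adjusted p = 0.0133, and 4.31 ± 0.34, adjusted p = 1.1e-06). Ifngr2 ranged from 44.1 to 103 CPM in naive-like libraries, from 4.6 to 21.1 in memory-like and from 9.76 to 22.3 in effector-like ones (2.97 ± 0.43, adjusted p = 0.00128, and 2.11 ± 0.51, adjusted p = 0.0188, lost with the title number as a block or without effector-like replicate 2 or 3). Socs3 stood at 900.4 ± 137 CPM against 436 ± 24.4 and 369 ± 90.2 (1.04 ± 0.13, adjusted p = 0.000406, and 1.29 ± 0.16, adjusted p = 6.72e-05). For these 3 genes no naive-like library overlapped with the other subsets. Ramp1 gave 22.6 ± 2.51, 14.9 ± 3.97 and 4.04 ± 2.68 CPM, which passed against the effector-like subset only (0.60 ± 0.36, adjusted p = 0.396, and 2.48 ± 0.48, adjusted p = 0.00464), and the 2 differences were not compared by a test.

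Klf2 and Ccr9 did not follow. Klf2 stood at 57.9 ± 13.8 CPM in naive-like, 31.5 ± 10.9 in memory-like and 69.5 ± 23.5 in effector-like libraries, with no call (0.88 ± 0.25, adjusted p = 0.0526, and -0.26 ± 0.28, adjusted p = 0.693). Ccr9, higher in the isotype naive-like cells, was lower in the sorted naive-like than in the memory-like subset. Its values were 17.5, 59.0, 135, 26.9, 43.7 and 14 CPM against 79.8, 188, 359, 112 and 300.2, overlapping in 1 naive-like library (-2.08 ± 0.55, adjusted p = 0.0397, lost in 9 of 18 alternatives). Itgb7 gave no call (-0.11 ± 0.12, adjusted p = 0.678).

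By function, 6 of 15 naive transcription factors were higher in the sorted naive-like than in the memory-like subset (Tcf7, Lef1, Bach2, Foxp1, Myb and Ets1) and none lower (1 lower at an unadjusted p under 0.05, 0 by DESeq2), and 9 were higher against the effector-like subset. Tcf7 stood at 725 ± 73.9, 301 ± 47.9 and 99.4 ± 20.1 CPM (1.27 ± 0.13, adjusted p = 0.00022, and 2.87 ± 0.17, adjusted p = 9.37e-08), and Bach2 at 79.7 ± 13.2, 27.8 ± 7.93 and 14 ± 5.3. Of 11 cytokine receptor and survival genes 4 were higher against memory-like (Il7r, Il4ra, Il6ra and Ifngr2) and 1 lower (Il2rg), and 5 against effector-like. Il7r stood at 584 ± 136, 328 ± 50.2 and 158 ± 56.6 CPM (0.83 ± 0.19, adjusted p = 0.0183, lost without memory-like replicate 1, and 1.89 ± 0.24, adjusted p = 0.000103). Of 14 other naive genes 5 and 10 were higher. So Tcf7 and Il7r, which in the isotype single cells differed by 0.13 and 0.08, were among the genes higher in the sorted subset. The references are unlike. The other isotype cells include those that lacked only Igfbp4 (894 before the exclusions), while both bulk references were sorted as CD62L-Slamf7hi.

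Several trailing genes were lower in the sorted subset. Klrc1 ran from 27.2 to 73.4 CPM in naive-like libraries, stood at 184 ± 21 in memory-like and 256 ± 109 in effector-like ones, without overlap (-1.77 ± 0.24, adjusted p = 0.000729, and -2.24 ± 0.27, adjusted p = 5.54e-05). Gzmk ran from 1.51 to 13.7 CPM against 60.1 ± 20.3 and 85.7 ± 6.79 (-3.15 ± 0.42, adjusted p = 0.000585, and -3.66 ± 0.45, adjusted p = 7.68e-05). Ccr2 stood at 43.3 ± 11.3 CPM against 143 ± 57.3 and 152 ± 48.8 (-1.72 ± 0.26, adjusted p = 0.00171, and -1.81 ± 0.29, adjusted p = 0.00102). Klrk1 and Fgl2, a secreted fibrinogen-like protein, were lower in both comparisons too. Ccl5 passed against the effector-like subset (-2.19 ± 0.16, adjusted p = 6.74e-07) and not against the memory-like one (-0.40 ± 0.14, adjusted p = 0.12), and the difference between these was not tested.

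Markers of other cell types varied between these subsets. Dendritic markers summed to 61.8, 292 and 902 CPM (lowest, median, highest) in naive-like, 355, 878 and 1258 in memory-like and 878, 1142 and 2827 in effector-like libraries. Macrophage markers summed to 22.7, 339 and 1019 CPM against 17.2, 46.1 and 912 in the memory-like libraries, with C1qa, C1qb and C1qc, 3 of 11, called higher. CD4 T cell markers summed to 14.2 to 55.1 CPM against 75.4 to 119.9 in the memory-like libraries. Plasmacytoid dendritic markers summed to 48.2, 153 and 492 CPM in naive-like, 339, 471 and 2030 in memory-like (Irf8 and Ly6d called lower in naive-like, of 8) and 53.5, 127 and 169 in effector-like libraries. Tumour and stroma markers summed to 70.5, 110 and 571 CPM in naive-like, 54.4, 102 and 129 in memory-like and 30.8, 530 and 804 in effector-like libraries. Their part in the differences was not tested.

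After blockade, the DN bulk libraries held less of some leading genes. Of 12710 genes 66 (0.519%) were higher and 76 (0.598%) lower, and none of the leading genes was higher and 5 lower (among them Tsc22d3, Rpl5, Rplp1 and Rps19; median -0.33), none of the isotype leading genes was higher and 4 lower (Lef1, Ifngr2, Rab3ip and 2610019F03Rik; -0.39), and 5 trailing genes were higher and none lower (Klrc1, Ccr2, Gzmk, Klrk1 and Ifng; 0.30), against a median of -0.01 over all genes. Where edgeR's count was 0, its unadjusted p under 0.05 gave 1 leading and 2 isotype leading genes higher and 4 trailing genes lower, and DESeq2 gave 0, 0 and 1. With the replicate number as a block, which pairs these libraries by their titles, 3 leading genes were called lower and 2 trailing genes higher, of 59 calls in all against 142 without the block.

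Lef1 stood at 242, 315 and 248 CPM in the DN isotype libraries and at 140.0, 101 and 67.4 in the DN blockade libraries. Ccr7 stood at 755, 1118 and 699 CPM against 409, 295 and 144. For both genes every blockade library was below every isotype library, with log2 differences of -1.38 ± 0.21 for Lef1 (adjusted p = 0.0173, and 0.0219 with the block) and -1.60 ± 0.33 for Ccr7 (adjusted p = 0.0415, and 0.0453 with the block). Fitting the DN libraries alone, with or without the block, ended both calls, and the Ccr7 call was also lost without DN isotype replicate 1 or 2 or DN blockade replicate 2 or 3. Dapl1 stood at 23.8, 35.3 and 22.8 CPM against 13.2, 11.5 and 5.84, also without overlap but above the threshold (-1.42 ± 0.34, adjusted p = 0.0665). Igfbp4, at 521, 266 and 679 CPM against 774, 561 and 992, overlapped and gave no call (0.67 ± 0.35, adjusted p = 0.395), and Krt8 in the same libraries stood at 216, 28.2 and 326 against 404, 186 and 400.4 CPM.

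Genes that trailed in the naive-like cells were among those higher in the DN libraries after blockade. Klrc1 stood at 76.8, 76.0 and 57.6 CPM after isotype and at 117, 123 and 174 after blockade (0.98 ± 0.15, adjusted p = 0.0177, and 0.0408 with the block). Gzmk stood at 33.3, 38 and 42.4 against 76.8, 60.9 and 56.6 CPM (0.77 ± 0.15, adjusted p = 0.0334), and Ccr2 at 92.2, 92.8 and 65.5 against 153, 145 and 230 (1.08 ± 0.19, adjusted p = 0.0272). The groups did not overlap for these 3 genes, but with 3 libraries in each group this can readily arise by chance. With the block the adjusted p was 0.0604 for Gzmk and 0.052 for Ccr2, so that these calls were lost. The calls on Gzmk and Ccr2 also ended without DN isotype replicate 1 or 2 or DN blockade replicate 3, that on Gzmk without DN blockade replicate 1 as well, and fitting the DN libraries alone ended all 3 calls.

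Other calls on leading genes also rested on the unblocked fit. Tsc22d3, a glucocorticoid-induced leucine zipper, stood at 867, 962 and 700.2 CPM against 463, 458 and 555 (-0.78 ± 0.14, adjusted p = 0.0286, and 0.0582 with the block), and Ifngr2 at 83.7, 93.4 and 83.0 against 59.3, 40 and 35.2 (-0.95 ± 0.20, adjusted p = 0.0482, and 0.0764). Ccr9 was called lower only with the block (adjusted p = 0.0273, against 0.0889). By function, 2 of 15 naive transcription factors were lower (Lef1 and Foxp1), 2 of 11 cytokine receptor and survival genes (Bcl2 and Ifngr2) and 4 of 12 quiescence genes, and none was higher by edgeR (0, 0 and 1 at an unadjusted p under 0.05, none by DESeq2). Leaving out DN isotype replicate 1 left 22 calls in all and leaving out replicate 2 left 28.

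Sums of red blood cell, plasmacytoid dendritic, CD4 T cell, B cell and naive-like markers did not overlap between the DN groups. Naive-like markers summed to 1542 to 1734 CPM after isotype and 969 to 1337 after blockade. B cell markers summed to 16.1 to 19.3 CPM and 9.11 to 14.8, and edgeR called none of the 4 B cell genes tested. Red blood cell markers summed to 4607, 5294 and 8682 CPM in the isotype and to 0.253, 12.7 and 185 CPM in the blockade libraries, with 6 of 6 genes called lower after blockade and 1 of 6 at 0 there. Tumour and stroma markers summed to 201 to 716 CPM after isotype and 425 to 1507 after blockade, and macrophage markers to 45.9 to 74.8 and 57.2 to 198, with Fcgr1 and Lyz2 called higher. Plasmacytoid dendritic markers summed to 1797, 2190 and 2689 CPM after isotype (lowest, median, highest) and 1074, 1127 and 1675 after blockade. EdgeR called none of these 8 genes, 8 were lower at an unadjusted p under 0.05, and DESeq2 called 0. CD4 T cell markers summed to 154, 168 and 184 CPM against 93.6, 118 and 140.3, although the median difference of the 7 genes was 0.83 and 1 (Tnfrsf4) was called higher. Dendritic markers summed to 1057 to 1361 CPM after isotype and 739.6 to 1190.3 after blockade. The part of other cell types in the DN differences was not tested. In the single cells red blood cell markers made up 14.8 CPM of the naive-like cells after isotype and 38.1 after blockade, from 22 and 3 UMIs. Among the other CD3-positive cells 5 of 5 red blood cell genes were higher after blockade (median log2 difference 5.42), opposite to the DN bulk libraries. In that single-cell contrast 13.9% of 10129 genes were higher. The reason for the opposite directions was not tested.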

How the data were processed

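Of the 2 single-cell libraries and 26 bulk libraries, those named above were used. The single-cell table holds deposited UMI counts per gene and cell, made with Cell Ranger 1.3 (mm10), per the submitters' processing notes. The bulk tables hold the authors' expected counts. The processing notes name TopHat, RSEM, DESeq and mm9 with no role or order. Of the expected counts, 22.63% (subsets) and 30.48% (treatment) were not whole, and they were rounded, with 4 rows of repeated gene name left out. Cell barcodes end in 1 or 2, and suffix 1 was taken as the isotype and 2 as the blockade library because the sample names carry these numbers. No file states this.

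Cells with fewer than 500 genes or over 10% mitochondrial UMIs were dropped, none of them naive-like, and no doublet caller was run. Counts were summed over cells per library, 0.5 UMI was added to each sum, and genes with at least 20 UMIs in both sums together were compared. Bulk counts were fitted over all groups of an experiment with edgeR 4.0.16 (TMM, quasi-likelihood F test, Benjamini-Hochberg adjustment, filterByExpr), with DESeq2 1.42.0 as an alternative, in R 4.3.3. The subset fit held 12388 genes in 14 libraries of 5027523 to 7978932 counts (biological coefficient of variation 0.624), and the treatment fit 12710 genes in 12 libraries of 8005818 to 13579262 counts (0.229). CPM in the text is from these fits. Single-cell work used Python 3.11.15 with numpy 2.4.6, scipy 1.17.1 and pandas 2.3.3, and figures matplotlib 3.10.9. The steps were tested on simulated data.

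DN libraries of the same title number deviated together (correlations 0.122 to 0.383, 3 of 3 over 0.1). For 2 of 3 blockade libraries the isotype library of the same number correlated best. The number was therefore taken to pair them, although their library names carry other numbers. Unless the DN libraries are named alone, the block was fitted over all 12 treatment libraries. Between DN and Tim-3+PD-1+ libraries, title numbers and library-name numbers give different matches. Results with the block thus rest on a pairing that the labels do not state. The labels do not say that libraries came from separate animals, so p-values measure only the spread between them. PCR and pooling add error that counting intervals do not cover. Genes were named by rank in the leading, isotype leading and trailing lists and by membership of the marker and function lists. The naive-like cells, the gene lists and the rules were chosen with earlier results of these data known. Alternatives covered the rule's thresholds, depth, filters, scaling, blocks and single libraries left out. Leaving out the cells that stand apart, the isotype leading list, the contrast with Ccr7-positive cells without Igfbp4 and the rule of at least 3 expected UMIs were chosen after seeing the data. Values of a few genes are not reported here.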

Additional observations from a re-analysis of the deposited data

Results flagged for a closer look

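Single bulk libraries stood apart for genes named above, by a gap to the nearest library of the group larger than Dixon's 95% critical value. This was so for 10 of 64 groups of 32 genes, where chance gives about 1 in 20 for independent groups. Several flags fell on the same library, so they are not independent. Only naive-like and memory-like groups were tested, and the effector-like and DN groups, with 3 libraries each, were not. Naive-like replicate 6 was highest for Igfbp4 (815 CPM, next 133), Krt8 (205, next 11.4), Krt18 (58.4, next 7.26) and Krt19 (32.9, next 4.98). Memory-like replicate 2 was highest for Igfbp4 (125, next 35.5), Krt8 (50.03, next 13.4), Fgl2 (349, next 170.0) and Rgs10 (71.2, next 48.7). Naive-like replicate 3 was highest for Ccr9 (135, next 59.0) and lowest for Fgl2 (12.4, next 35.9). In the single cells, Ccl4 and Xcl1 went opposite ways in the libraries. The naive-like minus other log2 difference was 2.13 after blockade and -3.35 after isotype for Ccl4, and 4.21 and -2.07 for Xcl1. The difference between the libraries was not tested, and 1 blockade cell carried 98.7% and 95.8% of the UMIs.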

How the results depend on the processing

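The naive-like share was 13.1% of isotype cells as reported, 43.8% without the Igfbp4 criterion, 7.72% with 2 Ccr7 UMIs and 8.40% after thinning. For blockade it was 0.776%, 11% without Igfbp4 and 1.55% without the granzyme criterion, and the ratio of 16.9 became 3.98 and 9.04. The counts of genes past 1.5-fold over all cells moved more. Isotype genes higher were 1061 with every cell, 429 without the Igfbp4 criterion, 575 with at least 50 UMIs and 611 without the cells that stand apart, and genes lower were 1038, and 587 against Ccr7-positive cells without Igfbp4. Blockade genes higher were 3574 with every cell, 1766 against granzyme-negative cells, 865 against Ccr7-positive cells without Igfbp4, 861 without the Igfbp4 criterion, 1959 with at least 50 UMIs and 236 with at least 3 expected UMIs, and genes lower were 2480, 1092 against Ccr7-positive cells, 1302 thinned and 1300 with 3 expected UMIs. Between naive-like cells of the libraries, 1341 were higher (689 thinned, 489 with 50 UMIs, 317 with 3 expected) and 1485 lower (506, 755 and 779). Fewer genes are tested under the last 2 of these.

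Naive-like against memory-like libraries gave 683 calls, 338 higher and 345 lower. DESeq2 gave 1204, 542 and 662. The library-name number as a replicate block with these groups alone gave 186, 102 and 84, with 5 leading and 7 isotype leading genes higher. Leaving out single libraries gave 340 to 815, 180 to 385 and 160 to 430, with 8 to 14 leading genes higher, 10 to 15 trailing genes lower and 6 to 12 isotype leading genes higher. Without memory-like replicate 1 the calls were 340 (180 and 160), 8 leading and 6 isotype leading genes, without replicate 3 429 (198 higher) and 9 leading genes, and without replicate 4 224 lower. Naive-like against effector-like libraries gave 795 calls, 470 higher and 325 lower. Dropping 3 libraries at once (memory-like 2 together with naive-like 4 and 6) gave 1319 calls, 675 lower. Leaving out single libraries gave 484 to 1068, 296 to 504 and 187 to 564, with 20 to 22 leading, 12 to 15 trailing and 9 to 15 isotype leading genes. Without effector-like replicate 1 there were 484 calls (297 and 187), without 2 517 (296 higher), without 3 189 lower, and without naive-like replicate 6 564 lower. With the title number as a replicate block the 2 comparisons gave 523 and 580 calls. The numbers did not pair the subsets (correlations -0.0085 to 0.0912 and -0.124 to 0.0617, 0 over 0.1).

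DN blockade against DN isotype gave 142 calls, 66 higher and 76 lower. DESeq2 gave 541 (250 and 291), the replicate block 59 (28 and 31), the DN libraries alone 2 (0 and 2) and the DN libraries with the replicate block 21 (6 and 15). Leading genes lower were 5, and 15, 3, 0 and 1 in these fits, trailing genes higher 5, and 11, 2, 0 and 0, and isotype leading genes lower 4, and 11 with DESeq2 and 0 and 0 in the DN libraries alone. Leaving out single libraries gave 22 to 229 calls, 12 to 90 higher, 10 to 139 lower, 0 to 8 leading, 1 to 5 trailing and 1 to 4 isotype leading genes. There were 22 calls without DN isotype replicate 1, 28 without 2, 229 without 3, 82 without DN blockade replicate 1 and 42 without 3. Of the genes followed through every fit, 7 of 19 calls against memory-like, 3 of 19 against effector-like and 8 of 8 in the DN libraries were lost in some alternative, and 0 reversed. The cause was not tested in any of these. Over 24 genes followed through every DN fit, the replicate block lost 5 calls and gained 2. Depth limits the blockade cells most, with 78705 UMIs in all, where 3 UMIs are 38.1 CPM.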
